A study of Mus musculus with 30 samples.

Results

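The comparison described here is the earliest step of a time course after loss of the olfactory bulbs: olfactory epithelium of wild-type-labelled mice at 2 h against 0 h. It uses 6 of the 30 arrays of the series, 3 at 2 h and 3 at 0 h, chosen by their labels and not by any measured value. Both groups were 6-week-old mice labelled wild type, in a series in which the olfactory bulbs of both sides were removed by surgery (bulbectomy). The other 24 arrays are wild-type-labelled mice at 8, 16 and 48 h and mice labelled SR-A mutant (SR-A is a scavenger receptor of macrophages, encoded by Msr1) at 0, 2, 8, 16 and 48 h, with 3 arrays per group. Whether mice at 0 h had been operated on is not stated in the labels. Nor is it stated that each array came from its own mouse, so that a p-value here reflects array-to-array spread, which could be technical. Each array gave 1 signal per probe set from total RNA of microdissected tissue, so fewer cells of a type and less RNA per cell cannot be told apart.

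The olfactory epithelium lines part of the nasal cavity and holds sensory neurons, supporting cells, glands and basal stem cells. Each mature sensory neuron sends a single axon into the bulb, so that bulbectomy cuts the axons of the neurons and leaves their cell bodies in place. In many injured tissues the first hours bring immediate early genes such as Fos and Egr1, which need no new protein to be transcribed, and the genes of chemokines and cytokines that call in white blood cells. Surgery and anaesthesia can also raise glucocorticoids, stress hormones whose receptor switches on genes such as Fkbp5. Antioxidant genes such as Hmox1 and Srxn1 are switched on by the transcription factor NRF2, which binds DNA together with a small Maf protein at antioxidant response elements.

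Omp, Gap43 and Adcy3, markers of the neurons, did not pass the test between the times. Omp, the marker of mature olfactory sensory neurons, read 29564, 28659 and 30467 at 2 h, against 29997, 31605 and 27106 at 0 h, and its log2 difference was 0.00 ± 0.11 (SE). Gap43, a growth cone protein of immature neurons, differed by -0.00 ± 0.22, and Adcy3, the adenylyl cyclase of the odorant signal, by -0.01 ± 0.13. Krt18 of supporting cells and Foxj1 of ciliated cells were bright as well. The basal cell keratins Krt5 and Krt14 were at the signal floor in all 6 arrays. Trp63, another basal cell marker, was not, with 553.3 to 877.1 at 2 h and 705.0 to 778.6 at 0 h. The targeted gene Msr1 went against the labels, so groups are named here as labelled: the brighter of its probe sets read 451.2 to 548.5 in the mutant-labelled 0 h arrays, against 83.1 to 173.8 in the wild-type-labelled 0 h arrays. In the wild-type-labelled 2 h arrays it read 131, 170.5 and 143.6. The labels do not say which stretch of Msr1 the mutation removes, so a probe set outside it would check nothing. The control probe sets for the 3' and 5' ends of Gapdh differed by -0.31 to -0.13 on the log2 scale in 27 of the 30 arrays, and by 5.59, 0.15 and 1.27 in the mutant-labelled 2 h arrays. Those 3 arrays take no part in the comparison and were kept out of the estimate of spread.

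At 2 h, 132 of 6968 tested probe sets (1.89%) passed the threshold of 0.05 for a p-value from limma adjusted over all tested probe sets. Of these, 86 rose (1.23% of those tested) and 46 fell (0.66%). They stand for 118 named genes, 75 that rose and 43 that fell. Most changes were small: the median log2 difference was 0.53 among those that rose and -0.55 among those that fell, and 11 passed 2-fold. The median of all tested probe sets was -0.03. In 86 of the 86 that rose and 44 of the 46 that fell, the 3 arrays at 2 h did not overlap the 3 at 0 h. Of all tested probe sets, 16.0% had every 2 h array above and 16.7% every 2 h array below. The p-values come from the same arrays, so passing the threshold favours such separation and the counts are no separate support. After quantile normalization 75.8% of the probe sets past the threshold were higher at 2 h, against 65.2% on the deposited scale. The call of any single gene rests on few arrays: without replicate 2 of the 2 h arrays, or without replicate 3 of the 0 h arrays, 0 probe sets passed in limma, with 1034 and 1112 at an unadjusted p under 0.05. For 129 of the 132 (97.7%) the mean at 2 h lay nearer to the mutant-labelled 0 h mean than to the wild-type-labelled 0 h mean, against 48.7% of all tested probe sets. The same count was 120 for the wild-type-labelled 8 h mean, 123 for 16 h and 92 for 48 h. Choosing probe sets for their distance from the wild-type-labelled 0 h arrays favours such counts, and these arrays enter each of them. Whether a difference in labelling or handling of the wild-type-labelled 0 h arrays had a part in the calls was not tested.

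**Figure D1:**
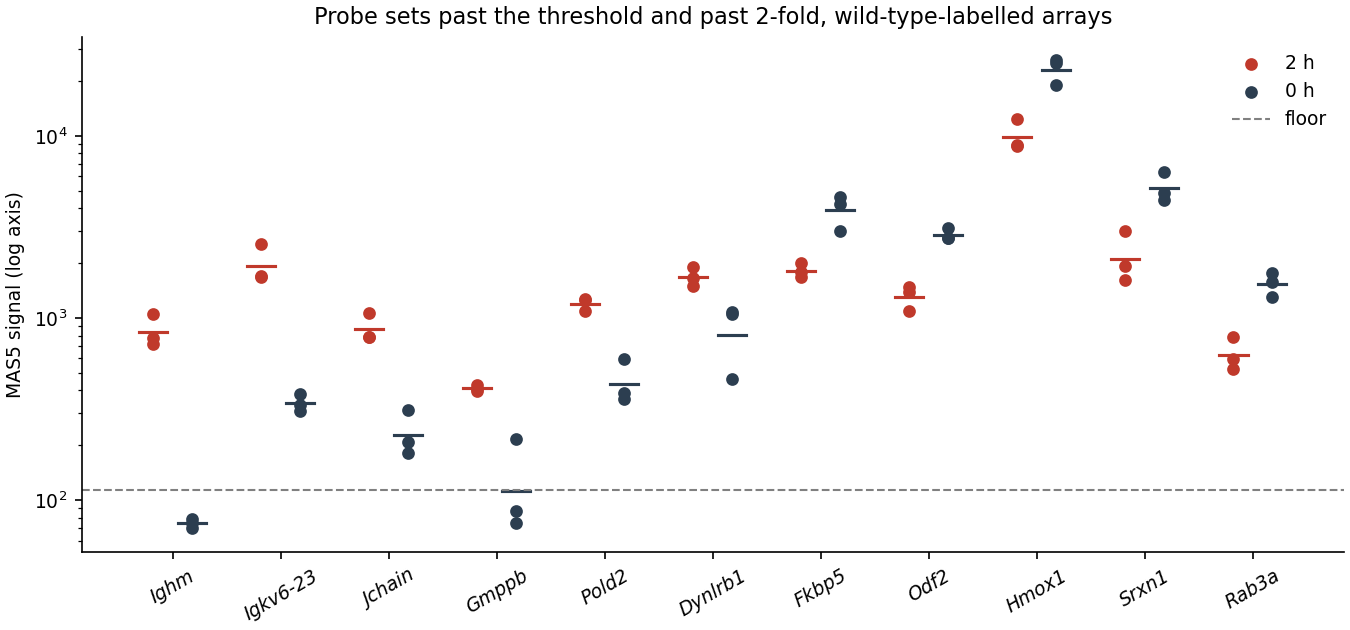
Signal of the 11 probe sets that passed the threshold and changed more than 2-fold, on a log axis, with 1 point per array, 2 h left of 0 h for each gene, short lines at the geometric means and a dashed line at the floor of 113.7. From Ighm to Dynlrb1 every 2 h array lies above every 0 h array, and from Fkbp5 to Rab3a every 2 h array lies below.

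Srxn1 and Hmox1, of the antioxidant response, fell. Srxn1 encodes sulfiredoxin, which restores oxidised peroxiredoxins, and lies on chromosome 2 at 152105524 to 152111376 of the GRCm38.p6 assembly. Its signal was 1617, 1930.1 and 2989 at 2 h, against 4885, 4424 and 6306 at 0 h. The groups did not overlap, and Srxn1 fell by 1.29 ± 0.23 on the log2 scale (adjusted p = 0.0115), a fold of 2.44. A dimmer Srxn1 probe set gave -0.40 (adjusted p = 0.146), the same direction without passing.

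Hmox1, which breaks down heme, lies on chromosome 8 at 75093618 to 75100593. It read 8834, 8934 and 12327 at 2 h, against 26036, 18901 and 25054 at 0 h. All 2 h arrays lay below all 0 h arrays, and Hmox1 fell by 1.22 ± 0.26 (adjusted p = 0.0258). Mafg, a small Maf partner of NRF2 that was in no list and is named after its values were seen, read 1087, 1017 and 1245 at 2 h, against 1212, 1825 and 1821 at 0 h. It fell by 0.52 ± 0.13 (adjusted p = 0.0412), with replicate 1 at 0 h inside the 2 h range.

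In the list of 23 tested antioxidant genes 0 rose and 2 fell, and the median difference was -0.08, against -0.02 over all 5396 genes tested with 1 probe set each. At that gene level 1.33% of genes rose and 0.723% fell. The next members by size did not pass and are named after their values were seen. Gclc and Gclm, the subunits of the enzyme that starts glutathione synthesis, had differences of -0.68 ± 0.21 and -0.58 ± 0.18. Gclc read 6924, 8266 and 8155 at 2 h, against 12605, 10459.9 and 14444 at 0 h, and Gclm read 2822, 2932 and 2920.2, against 4794, 3938 and 4269.9. Neither gene overlapped between the times, with adjusted p of 0.0769 and 0.0853. Nfe2l2, which encodes NRF2 itself, differed by 0.03, and Nqo1, another NRF2 target, by 0.06. Peroxiredoxins lay on the other side of zero, with 0.32 for Prdx3, 0.29 for Prdx4 and 0.21 for Prdx2, none of them past the threshold.

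The promoters of the antioxidant genes that fell are shown where the RefSeq promoter table (GRCm38.p6) holds them, as the 250 bases before the gene start, with matches to the antioxidant response element in capitals. The letters searched were TGACNNNGC and TGAGNNNGC on both strands.
Srxn1, chr2:152105274-152105523, plus strand: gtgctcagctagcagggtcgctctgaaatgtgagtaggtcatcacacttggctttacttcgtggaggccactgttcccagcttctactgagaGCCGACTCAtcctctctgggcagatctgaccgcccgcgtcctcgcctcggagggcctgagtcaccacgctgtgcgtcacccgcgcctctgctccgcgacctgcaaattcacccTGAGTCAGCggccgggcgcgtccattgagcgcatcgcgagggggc
Mafg, chr11:120633548-120633797, minus strand: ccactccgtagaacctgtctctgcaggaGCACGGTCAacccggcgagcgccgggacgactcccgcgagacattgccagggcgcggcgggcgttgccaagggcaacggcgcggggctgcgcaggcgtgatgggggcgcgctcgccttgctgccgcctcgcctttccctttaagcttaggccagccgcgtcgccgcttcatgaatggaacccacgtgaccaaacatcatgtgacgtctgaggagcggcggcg
Srxn1 held 2 matches, which begin 158 and 45 bases before the gene start, and the Mafg window held 1. Such letters were common: 25.7% of all 27025 genes in the table, 29.9% of the tested genes and 7 of 19 tested antioxidant genes (36.8%) held at least 1 match. Among the genes that fell, 6 of 33 with a promoter in the table held one (18.2%), and among those that rose 15 of 60. A match is a description of the letters and no evidence of binding.

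**Figure D2:**
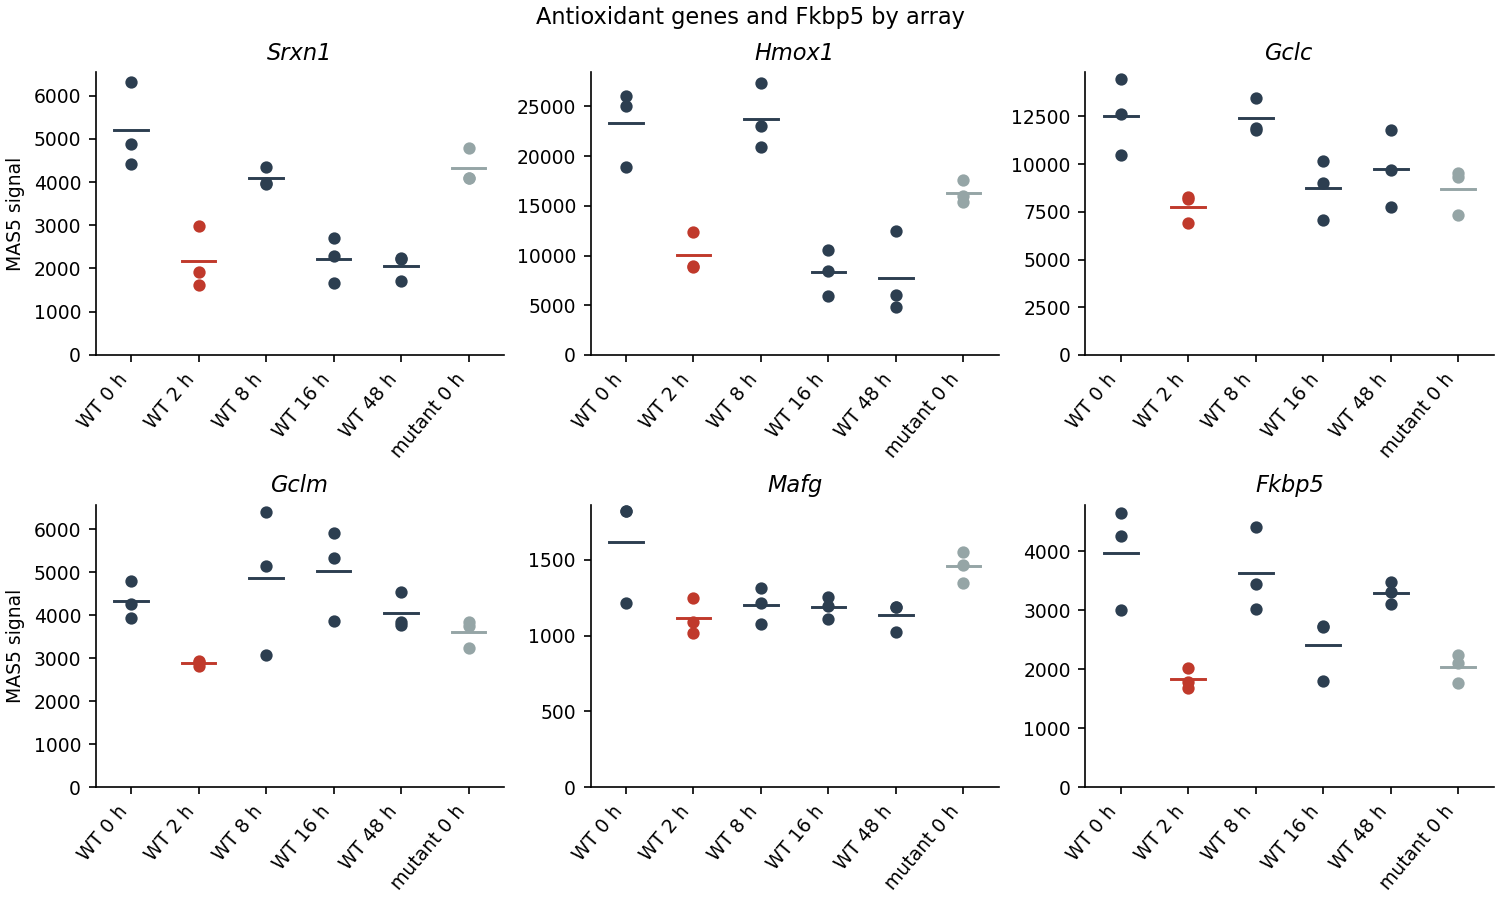
Linear signal of Srxn1, Hmox1, Gclc, Gclm, Mafg and Fkbp5 in each wild-type-labelled array by time and in the mutant-labelled 0 h arrays, with 1 point per array and lines at the means. Srxn1 and Hmox1 are low at 2 h, high again at 8 h and low at 16 and 48 h, and Fkbp5 at 2 h lies near the mutant-labelled 0 h arrays.

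These levels did not keep to 1 direction over time. Hmox1 averaged 23330.2 ± 3867 at 0 h, 10032 ± 1988 at 2 h, 23771 at 8 h, 8323 at 16 h and 7758 at 48 h (SD given for the times compared, n = 3 each). Srxn1 averaged 5205 at 0 h, 2179 at 2 h, 4098 at 8 h, 2215 at 16 h and 2057 at 48 h. So the 8 h arrays read nearer to the 0 h arrays than to the 2 h arrays for both genes. In the mutant-labelled 0 h arrays Srxn1 read 4088.1, 4779.4 and 4092.4, and Hmox1 read 17559.6, 15343.5 and 16025.4. All of these values lay above the wild-type-labelled 2 h arrays. Across all tested probe sets, wild-type-labelled arrays at 8 h had 17 past the threshold against the same 0 h arrays (0.244%), those at 16 h had 668 (9.59%) and those at 48 h had 1313 (18.8%). All 4 of these comparisons share the 0 h arrays.

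Of the genes that glucocorticoids induce, Fkbp5 fell. Fkbp5 encodes a co-chaperone of the glucocorticoid receptor, and lies on chromosome 17 at 28398753 to 28486149. It read 1678, 1787 and 2010.5 at 2 h, against 4639.6, 2994 and 4246 at 0 h. The groups did not overlap, and it fell by 1.10 ± 0.20 on the log2 scale (adjusted p = 0.0118). Fkbp5 passed in 12 of the 15 alternative fits. Its mean in the mutant-labelled 0 h arrays was 2036, close to the 2 h level of 1825.

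In the list of 23 tested glucocorticoid-induced genes 1 fell and 1 rose, where 0.723% of all tested genes fell and 1.33% rose. The list's median was -0.18 and 17 members lay below zero, where 46.4% of all tested genes lay above zero. The member that rose was Cebpb, a transcription factor of the acute phase, with 5178, 6510.5 and 5909.7 at 2 h, against 4289.7, 3979.8 and 5153 at 0 h, a log2 difference of 0.39 ± 0.10 (adjusted p = 0.0488). Zbtb16, a zinc finger repressor, had the largest difference of the list at -1.60 ± 0.50 and did not pass (adjusted p = 0.0827). Its signal was 831, 574 and 1174 at 2 h, against 3055, 1885 and 2692 at 0 h, with no overlap. Sgk1 differed by -0.20, Per1 by -0.13 and Dusp1 by 0.05. Lcn2, a glucocorticoid-induced and acute phase gene that binds bacterial iron carriers, had a difference of -0.75 ± 0.28 (adjusted p = 0.138), with 2742, 2416 and 3441 at 2 h, against 5422, 3686 and 5459 at 0 h. None of the 18 tested circadian clock genes passed, and their median was -0.16.

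Immediate early genes gave 1 call among 25 tested, where 1.33% of all tested genes rose and 0.723% fell. Ier2, a nuclear protein of the early growth response, read 4747, 4588 and 5100.5 at 2 h, against 3475, 3738 and 3548 at 0 h, and rose by 0.42 ± 0.10 (adjusted p = 0.0386). Fos, the partner of Jun in AP-1, read 3897, 3607 and 5298 at 2 h, against 1754, 2296 and 2002 at 0 h. The Fos arrays did not overlap and the difference was 1.07 ± 0.35, but the adjusted p was 0.0896, and Fos passed in 1 of 15 alternative fits. Egr1, a zinc finger factor, had 1865, 2522 and 2414 at 2 h, against 1278, 1394 and 1345 at 0 h, a difference of 0.75 ± 0.28 (adjusted p = 0.134), again without overlap. Among other members, Nr4a1 differed by 0.27, Jun by -0.16 and Atf3, an injury-response factor of cut axons, by -0.51. Every 2 h array lay above every 0 h array for 5 of the 25 and below for 4, against 16.7% and 16.4% of all tested genes. The list's median was 0.02, with 13 of 25 members above zero, against 46.4% of all tested genes.

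Ptgs2, the inducible cyclooxygenase, was too dim to be tested and read 237 to 361 at 2 h, against 138 to 162 at 0 h. Rgs2, which shortens signalling by Gq proteins, was not in that list and rose by 0.69 ± 0.16 (adjusted p = 0.03), with 2449, 2144 and 1879 at 2 h, against 1376, 1318 and 1306 at 0 h. The heat shock list gave no call among 18 genes, where 1.33% of all tested genes rose and 0.723% fell. Its largest differences were those of Hspa1a at -1.50 ± 0.46 and Hspa1b at -1.36 ± 0.43, the inducible Hsp70 genes (adjusted p of 0.0768 and 0.0839). These 2 genes are near-identical copies whose signals cannot be fully told apart. Hspa1a read 1799, 2487 and 5559 at 2 h, against 5769, 5897 and 16558 at 0 h, with replicate 3 the highest at both times.

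Inflammatory genes were not called at 2 h. In 7 lists of chemokines, cytokines, NF-kappaB, acute phase, interferon, MHC class II and complement genes, 0 of 95 distinct tested genes passed in limma. At most 1 passed in any of the 15 alternative fits. Over all genes tested 1.33% rose and 0.723% fell, so few calls would fall among 95 genes in any case. In limma 14 of the 95 had an unadjusted p under 0.05, against 1377 of all 6968 tested probe sets. Every 2 h array lay above every 0 h array for 8 of the 95 and below for 12, against 16.7% and 16.4% of all genes tested. The largest difference in size was that of Traf5, an adaptor of TNF receptors, which read 172, 209.5 and 236 at 2 h, against 509.8, 466 and 471 at 0 h, a difference of -1.24 ± 0.47 (adjusted p = 0.143). Saa2, an acute phase protein, had -1.16 ± 0.46 (adjusted p = 0.161), with 180.2, 237 and 192 at 2 h, against 1345, 323 and 210.3 at 0 h, and this rested mostly on replicate 1 at 0 h. Without that array the Saa2 difference was -0.37. Ccl22, a chemokine of dendritic cells, read 516, 529 and 610.1 at 2 h, against 885, 973 and 758 at 0 h, a difference of -0.66 ± 0.17 without overlap (adjusted p = 0.0527). Members on the upper side did not pass either. Il1b, an early cytokine of myeloid cells, read 571, 391 and 542 at 2 h, against 204, 286 and 239.5 at 0 h, a difference of 1.04 ± 0.40 without overlap (adjusted p = 0.151). Ccl2, which draws monocytes, read 422, 118 and 178 at 2 h, against 19.1, 81.2 and 16.6 at 0 h, where all 3 arrays lay below the floor (adjusted p = 0.237). The neutrophil chemokine Cxcl1 differed by 0.09 ± 0.50 and Il6 by -0.50 ± 0.34. Cxcl2, another neutrophil chemokine, was under the floor in 1 array at 2 h and 2 at 0 h, so no difference is given. It averaged 107 at 0 h, 133 at 2 h and 5524 at 48 h, and Saa3, an acute phase protein, 171 at 0 h, 160.2 at 2 h and 4901 at 48 h. Cd68 of macrophages had a difference of -0.35 ± 0.16 (adjusted p = 0.208), the lowest of the macrophage list. That list had a median of 0.02 and 12 of 20 positive differences, against 46.4% of all tested genes. Of 20 tested macrophage genes 1 rose, Cd83, an activation marker of dendritic and B cells, by 0.72 ± 0.18 (adjusted p = 0.0448), with 658, 509 and 471 at 2 h, against 302, 380.1 and 306 at 0 h.

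Genes of the mitochondrial respiratory chain gave 13 calls, the highest count among the 44 lists, in the list with the most tested genes. As a share of the genes tested, 13 of 62 was lower than 3 of 13 immunoglobulin genes (23.1%) and 1 of 3 mast cell genes (33.3%). Oxidative phosphorylation passes electrons along complexes I to IV of the inner membrane and uses the proton gradient for ATP synthase, complex V. Of its 62 tested subunit genes 13 rose and 0 fell, against 1.33% and 0.723% of all tested genes. The median difference was 0.26, against -0.02 over all genes. Positive differences were found for 55 of the 62 genes, against 46.4% of all tested genes, and for 44 every 2 h array lay above every 0 h array, against 16.7% of all tested genes. The changes were under 2-fold in every member, with the highest at 0.65.

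Complex I, the NADH dehydrogenase, held 8 of the 13 that rose, among 26 tested. Ndufa6, an accessory subunit on chromosome 15 at 82350139 to 82354291, read 3776, 3861 and 3763 at 2 h, against 2521, 2571 and 2212 at 0 h. It rose by 0.65 ± 0.10 (adjusted p = 0.0115) and passed in 13 of 15 alternative fits. The others were Ndufv3 at 0.51, Ndufa5 at 0.49, Ndufa2 at 0.48, Ndufa3 at 0.45, Ndufv2 at 0.44, Ndufb8 at 0.41 and Ndufb11 at 0.40. Ndufv2 carries an iron-sulfur cluster of the electron-input module together with Ndufv1, and Ndufv1 differed by -0.09. Complex II, the succinate dehydrogenase, had 0 of 4 past the threshold, with differences from 0.03 for Sdha to 0.21 for Sdhd.

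Complex III with cytochrome c had 2 of 9 that rose. Uqcrh, the hinge protein of complex III, read 15765, 17019.9 and 15520.3 at 2 h, against 10792, 12319 and 10831 at 0 h, and rose by 0.51 ± 0.09 (adjusted p = 0.0115). Uqcrb rose by 0.45. All 9 genes had positive differences. In complex IV, cytochrome oxidase, 1 of 11 rose, Cox7b by 0.47, while the lowest member, Cox8c, had a difference of -0.47 (adjusted p = 0.084). In ATP synthase 2 of 12 rose, Atp5md by 0.61 and Atp5mpl by 0.45, both small membrane-part subunits. Atp5md read 22070.0, 23053 and 21809 at 2 h, against 13853, 17024 and 13305 at 0 h.

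**Figure D3:**
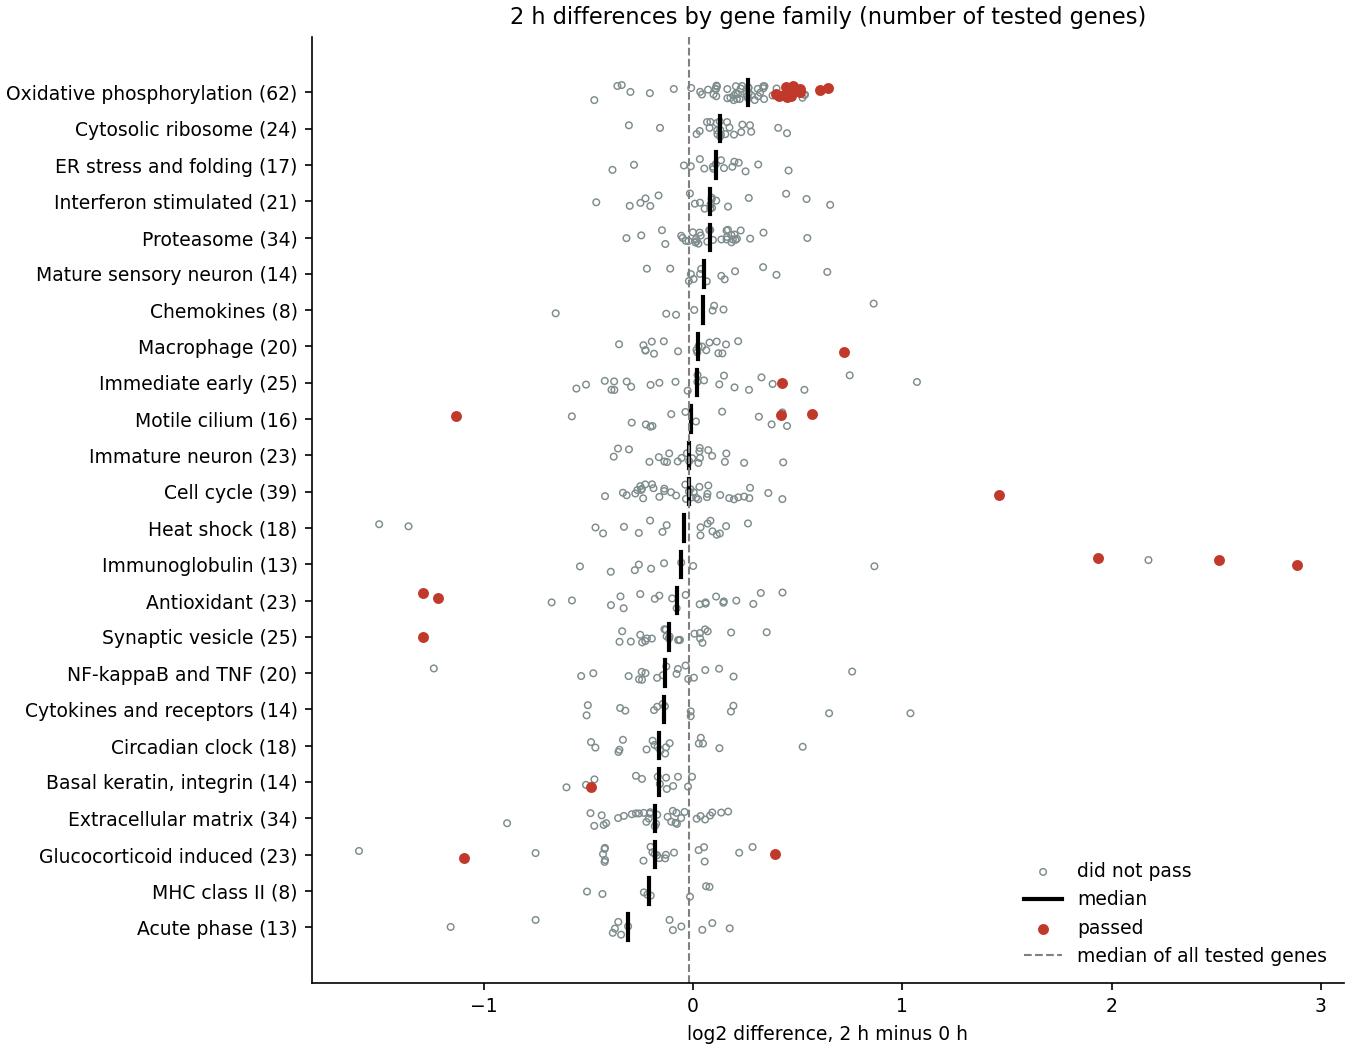
Log2 difference between 2 h and 0 h for each tested gene of 24 families, 1 point per gene, with filled points for genes past the threshold, black bars at the family medians and a dashed line at the median of all tested genes, -0.02. Oxidative phosphorylation holds 13 filled points between 0.40 and 0.65.

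Other mitochondrial families were drawn up after values had been seen and are given as description. Among 56 tested mitochondrial ribosomal proteins 2 rose and 0 fell, against 1.33% and 0.723% of all tested genes, with a median of 0.19. Differences were positive for 43 of them, against 46.4% of all tested genes. Mrpl20 read 1778, 1851 and 1739.8 at 2 h, against 1306, 1326 and 1248 at 0 h, a rise of 0.47 ± 0.09 (adjusted p = 0.0142), and Mrpl41 rose by 0.65. Of 18 tested import and inner membrane translocase genes 3 rose: Timm8b, an intermembrane space chaperone, by 0.53, Grpel1, a partner of mitochondrial Hsp70, by 0.54 and Immp1l, an inner membrane peptidase, by 0.65. Further mitochondrial genes outside these families that rose were Cox17 and Coa6, assembly factors of cytochrome oxidase, by 0.50 and 0.57, Atpif1, an inhibitor of ATP synthase, by 0.42, and Slirp, which binds mitochondrial messenger RNA, by 0.67. Of these, Cox17, Coa6 and Atpif1 were chosen after their values were seen.

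Of 24 tested cytosolic ribosomal proteins and 34 proteasome subunits 0 passed, where 1.33% of all tested genes rose and 0.723% fell. Their medians were 0.13 and 0.08, and 22 of 24 and 25 of 34 members had positive differences, against 46.4% of all tested genes. Every 2 h array lay above every 0 h array for 14 of 24 and 15 of 34, against 16.7% of all tested genes. An upward shift was thus not limited to the respiratory chain. In the glycolysis list 0 of 18 passed and the median was -0.08. The count of respiratory chain genes that rose depended on the arrays: it was 10 after quantile normalization, 4 in the fit of all 30 arrays, 1 in the fit of the 6 arrays alone, and 0 to 11 when 1 array was left out. The median difference stayed between 0.23 and 0.30 when 1 array was left out.

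**Figure D4:**
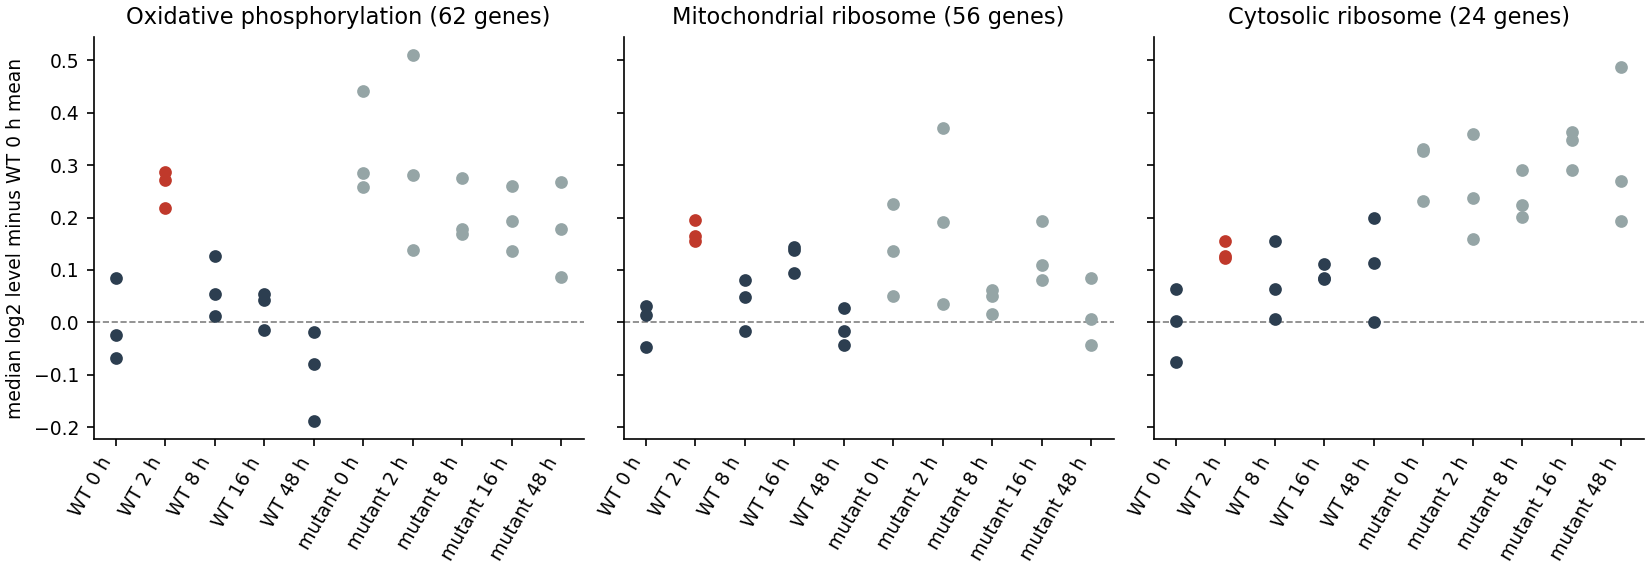
Median log2 level over the genes of 3 families in each array, relative to the mean of the wild-type-labelled 0 h arrays, with the 2 h arrays of the comparison in red, other wild-type-labelled arrays dark and mutant-labelled arrays grey. The respiratory chain median lies at 0.22 to 0.29 in the 2 h arrays and at -0.07 to 0.08 in the 0 h arrays, and the mutant-labelled 0 h arrays lie at 0.26 to 0.44.

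Array by array, the respiratory chain median relative to the 0 h mean was 0.27, 0.29 and 0.22 at 2 h, against -0.07, 0.08 and -0.02 at 0 h. It was 0.01, 0.06 and 0.13 at 8 h, -0.01, 0.05 and 0.04 at 16 h, and -0.08, -0.02 and -0.19 at 48 h. The 2 h arrays were thus the highest of the 15 wild-type-labelled arrays. The mutant-labelled 0 h arrays stood at 0.26, 0.44 and 0.28. A control probe set for 18S ribosomal RNA read 40.3, 228.1 and 77.6 at 2 h, against 29.5, 23.6 and 24.8 at 0 h, and 5 of these 6 values lie under the floor and carry no order. It reached 413.2 in a 16 h array and 118.4 to 437.2 at 48 h, where the respiratory chain medians lay at or below 0.05, and 720.6 to 973.7 in the mutant-labelled 0 h arrays.

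The largest rises by size belonged to immunoglobulin genes. The Ighm probe set, for the heavy chain constant region of IgM on chromosome 12 at 113418826 to 113422730, read 781, 719.5 and 1054 at 2 h, against 75.3, 69.9 and 79.2 at 0 h. All 0 h arrays were under the floor of 113.7, so the signal was at least 7.39-fold higher at 2 h (adjusted p = 0.0228). Igkv6-23, a kappa light chain variable segment, read 1683, 1701 and 2539.9 at 2 h, against 381, 332 and 309 at 0 h, a rise of 2.51 ± 0.54 (adjusted p = 0.0258). Jchain, which links IgA and IgM into polymers, read 786, 784 and 1069.7 at 2 h, against 313, 208 and 181 at 0 h, a rise of 1.94 ± 0.43 (adjusted p = 0.03). In each of these genes all 2 h arrays lay well above all 0 h arrays. Igha, for the IgA heavy chain, had 1746, 1494 and 2279.7 at 2 h, against 564, 314 and 364 at 0 h, a difference of 2.18 that just missed the threshold (adjusted p = 0.0527).

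Of the 13 tested genes in the immunoglobulin list 3 rose and 0 fell, against 1.33% and 0.723% of all tested genes. The list's median was -0.06 with 7 members below zero, and 4 rose after quantile normalization. Every 2 h array lay above every 0 h array in 5 of the 13, against 16.7% of all tested genes. The fifth was Igkv6-14, which was under the floor in all 6 arrays. Other tested probe sets annotated to Ighm gave -0.26 and 0.13, and immunoglobulin genes share sequence, so a probe set may read several of them. The summed signal of the list was 9629.5 to 11489.9 at 2 h, against 6413.5 to 8094.7 at 0 h. Ighm averaged 75 at 0 h, 852 at 2 h, 681 at 8 h, 1883 at 16 h and 62 at 48 h, so that the 48 h arrays were as low as the 0 h arrays. The mutant-labelled 0 h arrays averaged 3296. Genes of red blood cells gave 0 of 5 past the threshold, with Hba-a1 at 0.08 and a summed signal of 65177 to 82254 at 2 h, against 62480.3 to 71180.5 at 0 h. Whether the number of plasma cells in the dissected pieces had a part in the immunoglobulin differences was not tested.

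**Figure D5:**
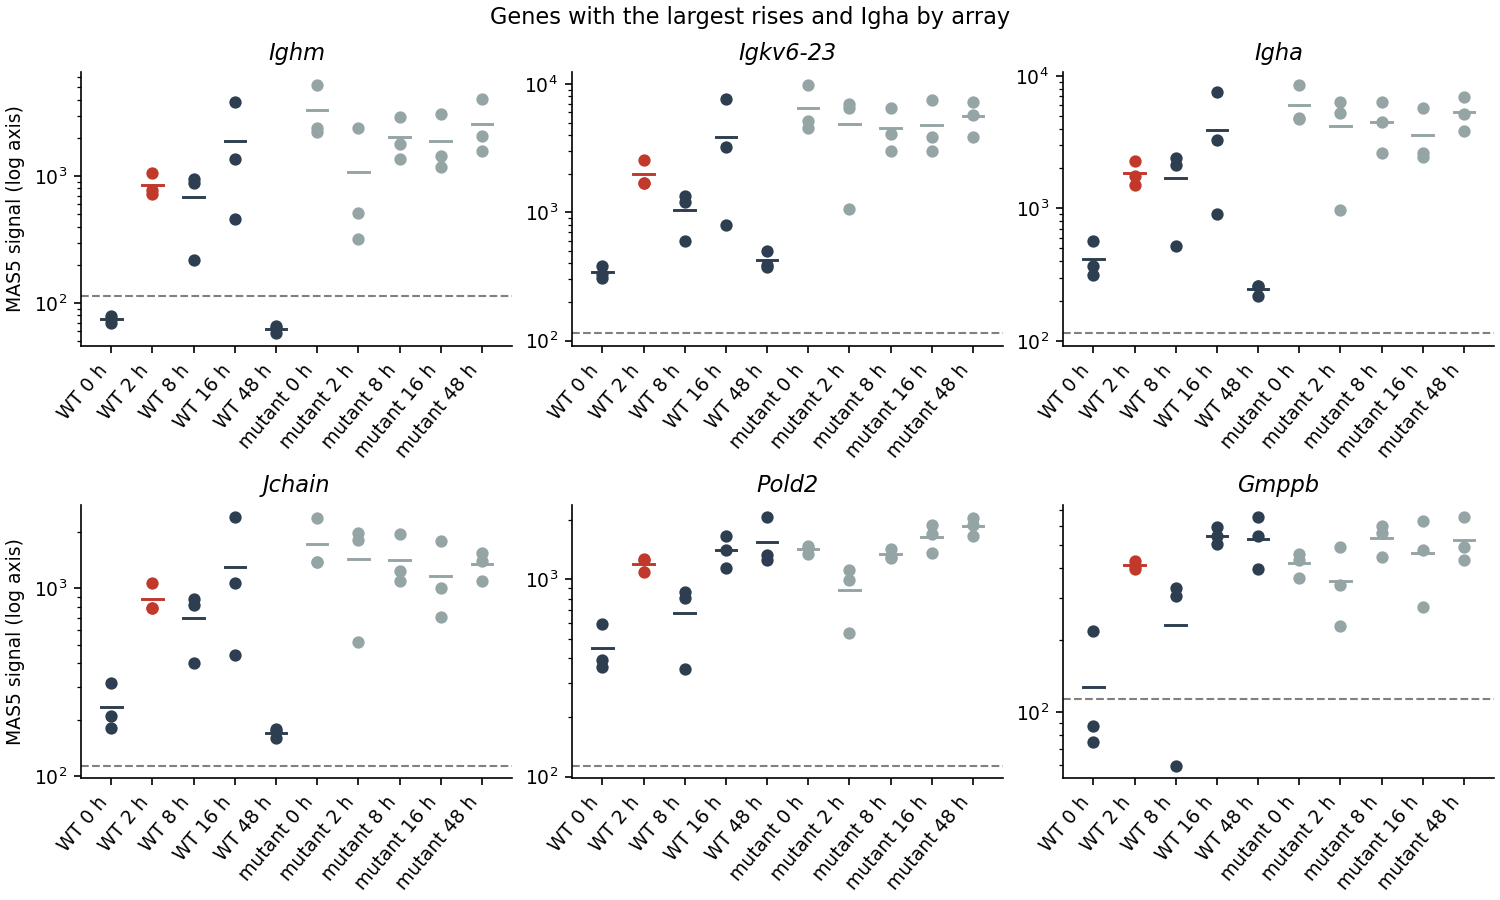
Signal on a log axis of 4 immunoglobulin genes and of Pold2 and Gmppb in all 30 arrays by label and time, with 1 point per array, lines at the means and a dashed line at the floor of 113.7. Ighm lies below the floor in the wild-type-labelled 0 h and 48 h arrays and above it at 2, 8 and 16 h, whereas Pold2 stays high at 16 and 48 h. In all 6 panels the mutant-labelled 0 h arrays lie above the wild-type-labelled 0 h arrays.

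Outside these families, Pold2, the small subunit of the replicative DNA polymerase delta, lies on chromosome 11 at 5872180 to 5878256. It read 1264, 1256 and 1089 at 2 h, against 593, 359.6 and 388 at 0 h, and rose by 1.46 ± 0.25 (adjusted p = 0.0115), passing in 13 of 15 alternative fits. In the wild-type-labelled 8 h arrays Pold2 read 801.5, 866.3 and 353.2. In the mutant-labelled 0 h arrays it read 1350, 1477 and 1437, beside the 2 h level. It was the sole call among 39 tested cell cycle and replication genes, where 1.33% of all tested genes rose, and the list's median was -0.02. Rises outside that list were those of Rpa3, the small subunit of the single-strand DNA binding protein RPA, by 0.71 ± 0.17, and of Cks2, a cofactor of cyclin-dependent kinases, by 0.66 ± 0.14. Rpa3 read 3337, 3365 and 3229.9 at 2 h, against 1733, 2160.5 and 2216 at 0 h. Gmppb, which makes GDP-mannose for protein glycosylation, read 428, 398 and 407 at 2 h, against 218, 75.3 and 87.3 at 0 h, at least 2.91-fold higher with replicates 2 and 3 at 0 h under the floor (adjusted p = 0.0258). It read 458, 362.5 and 434 in the mutant-labelled 0 h arrays.

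Dynlrb1, a light chain of the dynein motor, rose by 1.06 ± 0.26, with 1498, 1894 and 1649.5 at 2 h, against 462, 1046 and 1079 at 0 h. Its brighter probe set gave 0.32 (adjusted p = 0.133), and without replicate 1 at 0 h the difference was 0.65. Snrpd3, a core protein of spliceosomal particles, rose by 0.85 ± 0.15 (adjusted p = 0.0115), with 1473, 1489 and 1259.5 at 2 h, against 912, 707 and 736 at 0 h. Other rises of 0.67 to 0.68 were those of Calml4, a calmodulin-like protein, Gkap1, an anchor of cGMP-dependent kinase, and Csrp2, a LIM domain protein. All their 2 h arrays lay above their 0 h arrays.

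Among the genes that fell, Rab3a, a GTPase of synaptic vesicles, had the largest difference together with Srxn1. It lies on chromosome 8 at 70754703 to 70758608 and read 595, 526 and 786 at 2 h, against 1576, 1757 and 1303 at 0 h, a fall of 1.29 ± 0.28 on the log2 scale (adjusted p = 0.0278). It was the sole call among 25 tested synaptic vesicle genes, whose median was -0.12. Over all tested genes 1.33% rose and 0.723% fell. Odf2, a protein of centriole appendages and of cilia and sperm tails, read 1091, 1385 and 1485 at 2 h, against 2761, 2757 and 3105 at 0 h. It fell by 1.13 ± 0.22 (adjusted p = 0.0169), whereas Spa17 and Cetn2, also in the list of 16 tested motile cilium genes, rose by 0.57 and 0.42. The mutant-labelled 0 h means were 789 for Rab3a and 1256 for Odf2.

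Dmtf1, a Myb-like factor that binds D cyclins, read 384, 287 and 253 at 2 h, against 573, 529.8 and 680.1 at 0 h, a fall of 0.96 ± 0.17 (adjusted p = 0.0115). Foxo4, a forkhead factor held out of the nucleus by insulin signalling, read 2146, 2255 and 2219.8 at 2 h, against 3264, 3256 and 3641 at 0 h, a fall of 0.62 ± 0.13. In the fixed lists, 0 of 21 progenitor transcription factors and 0 of 14 histone genes passed, where 1.33% of all tested genes rose and 0.723% fell. Igf1, a growth factor of that signalling route, fell by 0.58 ± 0.15 and was the sole call among 21 tested growth factor genes. Eif4ebp1, a brake on translation, fell by 0.64. The nuclear regulators Rere, Lef1, Hcfc1, Hdac7 and Arid1a fell by 0.54, 0.53, 0.45, 0.42 and 0.36. These 5 were picked out after their values were seen.

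Other falls among the 15 largest were those of Leng8, by 0.89 ± 0.19, Fndc1, a fibronectin domain protein, by 0.71 ± 0.19, D430019H16Rik by 0.66 ± 0.15, Nr5a1, a nuclear receptor of steroid-making tissues, by 0.62 ± 0.16, and Gm29722 by 0.59 ± 0.13. Ctse, the protease cathepsin E, was the sole call of the lysosome list and fell by 0.49 ± 0.12 (adjusted p = 0.0365). Some of these falls were not shared by other probe sets of the gene. A dim Ccnd1 probe set, for cyclin D1, fell by 0.81 ± 0.21, but a brighter one gave -0.01. Larp7, which binds the 7SK RNA, fell by 0.67 in 1 probe set, and its others gave 0.02 and 0.20. Casp2, an apoptosis protease, fell by 0.38, and its dimmer probe set gave -0.62 (adjusted p = 0.0526), the same direction. Olfr71 was the sole call among 7 tested olfactory receptor genes and fell by 0.56 ± 0.14, with 2773, 1918 and 2608 at 2 h, against 4146, 3356 and 3212 at 0 h. The single calls of the lysosome and olfactory receptor lists stand beside 0.723% of all tested genes that fell.

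Structural tissue lists gave 0 or 1 call each, where 1.33% of all tested genes rose and 0.723% fell. None of 34 tested extracellular matrix genes passed, although 27 of 34 had negative differences and the median was -0.18. Of all tested genes, 46.4% had positive differences. In the 14 tested basal keratin and integrin genes all differences were negative and 1 fell, Kit, a receptor tyrosine kinase of progenitors and mast cells, by 0.49 ± 0.13. The largest member of the epithelial injury list was Sprr1a, a cornified envelope protein that neurons also make after axon injury, with 538, 418 and 443 at 2 h, against 1105, 760.4 and 1330 at 0 h, a difference of -1.16 ± 0.51 (adjusted p = 0.205). None of the 25 genes of that list passed. Col15a1, the largest of the matrix list, had a difference of -0.89 ± 0.29 (adjusted p = 0.0896). Mature neuron, immature neuron and supporting cell lists gave 0 of 14, 0 of 23 and 0 of 31 past the threshold. Of the 44 lists, 28 had no member past the threshold and 15 had 1 to 3, which leaves oxidative phosphorylation with 13. At the share of calls over all tested genes, lists of these sizes would hold few calls or none. Kit and Cebpb each stand in more than 1 list.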

How the data were processed

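The authors deposited linear signal intensity values for 12488 probe sets on each of 30 Affymetrix MG-U74Av2 arrays, made with MAS5 per the submitters' processing notes. The sources used here do not give its version. All arrays had 2% trimmed means of 1500.7 to 1500.9, from which a common scaling by the authors was inferred. The number of arrays limits the precision.

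From the deposited intensities, signals under 113.7 (the pooled 25th percentile) were set to that floor, log2 was taken, and the 6968 probe sets with at least 3 arrays over the pooled median of 572 were tested, which left out 5454. Group means of 27 arrays in 9 groups, without the 3 mutant-labelled 2 h arrays, were fitted with limma 3.58.1 in R 4.3.3 (lmFit, eBayes), with two-sided p-values adjusted after Benjamini and Hochberg over every tested probe set and a threshold of 0.05. Errors on differences are standard errors of the fit. Where arrays of the dimmer group lay under the floor, a fold is given as at least that size. The brightest tested probe set stood for a gene in the lists. Gene names came from the platform annotation (10833 probe sets with 1 gene, 396 with several, 1193 with none), with 10817 matched to GRCm38.p6 and 0 symbols updated. The steps were tested on simulated data.

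The comparison, gene lists and fit were chosen with earlier results of these data known. Named genes were the 15 largest rises and falls past the threshold without overlap of arrays, up to 4 members past the threshold and the 2 largest of each list, and a set of 32 index genes. Exceptions are named as such in the text, and list members that did not pass are left out for many lists. Deviations of same-numbered arrays had correlations of 0.10, -0.23 and -0.02, and those of other pairs ran from -0.20 to 0.22. So the numbers are not shown to pair the arrays, and pairing is not excluded. Other steps used Python 3.11.15, pandas 2.3.3, numpy 2.4.6 and matplotlib 3.10.9. Alternatives were other sets of arrays in the fit, quantile normalization, a pseudocount of 16, other filters, a variance trend with robust moderation, the replicate number as a block, and each array left out.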

Additional observations from a re-analysis of the deposited data

How the results depend on the processing

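The count of 132 probe sets past the threshold was 40 in the fit of all 30 arrays and 59 in the fit of the 6 arrays compared. It lay between 101 and 160 under the other fits that kept all 6 arrays: 115 for the wild-type-labelled arrays alone, 149 after quantile normalization (109 shared with the 132), 135 with a pseudocount, 101 without a filter, 160 with a filter on the 6 arrays and 160 with a variance trend. With the replicate number as a block it was 155, with 117 shared, and the numbers are not shown to pair the arrays. With 1 array left out it ranged from 0 to 137: 0 without replicate 2 at 2 h or replicate 3 at 0 h, 21 and 13 without replicates 1 and 3 at 2 h, and 15 and 137 without replicates 1 and 2 at 0 h. Those fits still gave 958 to 1390 probe sets at an unadjusted p under 0.05. The cause was not tested, beyond the smaller number of arrays that leaving 1 out brings. Signals under the floor carry no order, so dim genes such as Ccl2 and Cxcl2 are limited by background.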
